A study of Homo sapiens with 6 samples.

Results

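The ATP-binding cassette (ABC) transporters were described in MDA-MB-231-DR, a subline that resists doxorubicin and derives from MDA-MB-231, a human line of triple-negative breast cancer. The members were chosen by name, as the protein-coding genes of the count table whose symbol is ABCA to ABCG followed by a number. There were 45 of these among 58302 genes in the table. RNA sequencing covered 3 control libraries of MDA-MB-231-DR cells and 3 libraries of the same resistant line treated with cyperotundone (CYT), a compound of sedge plants. Libraries are named here by group and replicate number, as control 1 or CYT 2. Both groups therefore carried the resistant background, and parental cells were not analysed here. The study kept the resistant line in medium with a low concentration of doxorubicin, itself a substrate of several ABC pumps, and the dose and duration of CYT for these libraries are not given in the sources used here. The labels do not say whether the 3 libraries of a group came from separate cultures, so p-values measure the spread between these libraries, which may be technical.

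ABC proteins bind and hydrolyse ATP and most of them use that energy to move a substrate across a membrane. The family is best known in cancer for the drug pumps P-glycoprotein (ABCB1), MRP1 (ABCC1) and BCRP (ABCG2), which export anthracyclines and other chemotherapeutic drugs. Other members carry sterols, phospholipids, bile salts, heme precursors or fatty acids, and the ABCE and ABCF proteins have no membrane domain and act on ribosomes and translation.

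The libraries held 14050849 to 17770102 counts in control cells and 13056270 to 14106017 in CYT-treated cells. All 6 genes of a marker list for MDA-MB-231 cells (VIM, CD44, EGFR, AXL, CAV1, FOSL1) had at least 10 counts in every library, summed to 3819 to 4234 in control and 1687 to 1810 in CYT libraries (CPM, counts scaled to library size), and 4 of them were lower after CYT. Leukocyte markers summed to 0.213 to 1.37 CPM in control and 4.09 to 5.12 CPM in CYT libraries, with CD3E at 0 throughout and CD14 at 4 to 19 counts in control and 49 to 59 after CYT. Endothelial and fibroblast markers summed to 21.5 to 37.4 and 5.98 to 9.46 CPM, with 0 higher and 2 lower of 4 tested. Luminal markers summed to 503 to 821 and 209 to 542 CPM, with 0 of 4 tested called and PGR and CDH1 at 0 in control cells. Beside these counts, 15.7% of all genes tested were called higher and 12.9% lower, by the test described below. The part of these markers in the results was not tested, and in bulk RNA fewer cells of a type and less RNA per cell cannot be told apart.

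CYT 2 stood apart, with a correlation to the other CYT libraries of 0.904 and 0.905 against 0.970 between those. Its members followed base composition. It was the highest CYT library for 10 of 10 tested members whose transcript had under 45% GC, and the lowest for 12 of 12 with over 55% GC. Among control libraries, control 1 lay the other way, the lowest for 10 of those 10 and the highest for 10 of those 12. Across the 30 tested members the log2 ratio of CYT 2 to the mean of CYT 1 and CYT 3 had a Pearson correlation of -0.92 with GC content, and the same ratio for control 2 one of -0.68. Over 15542 tested genes these were -0.71 and -0.47, so the pattern was not limited to ABC genes. These correlations are across genes of the same libraries and are given as a description. The calls are therefore given also without CYT 2.

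**Figure D1:**
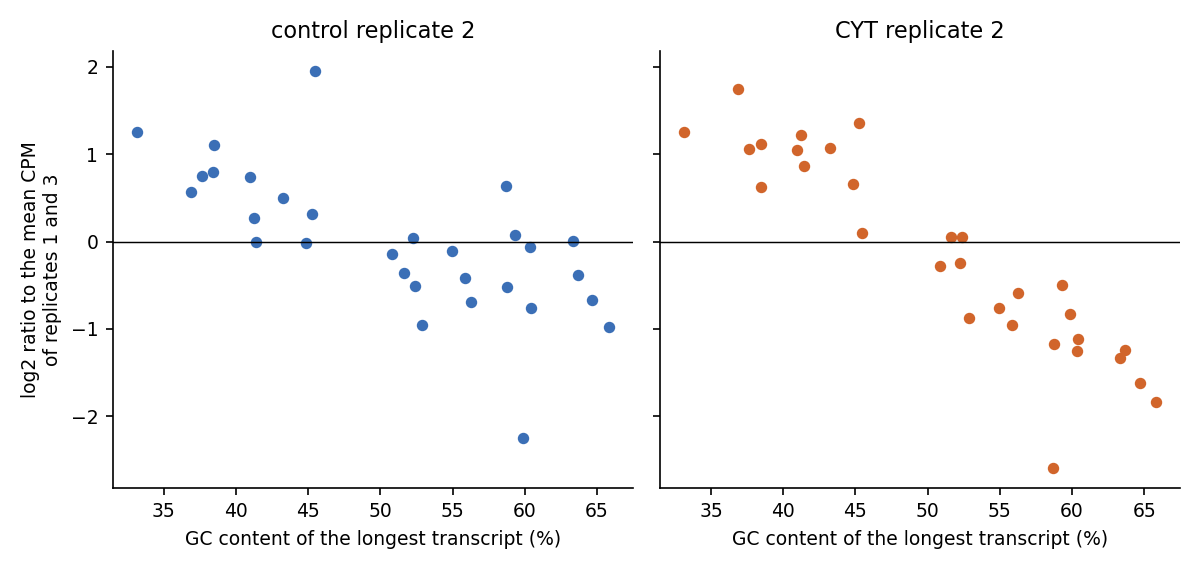
Log2 ratio of replicate 2 to the mean of replicates 1 and 3 of its group, each plus 0.1 CPM, against the GC content (%) of the transcript for the 30 tested ABC genes, 1 point a gene for control and CYT. The ratio falls with GC content in both groups, with exceptions among the control points, and the correlation was -0.92 for CYT and -0.68 for control.

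CYT-treated cells held less RNA of the doxorubicin pump ABCC1 and of the ribosome proteins ABCE1 and ABCF1, and more of ABCG2, ABCC2, ABCC9 and ABCA5. Of the 45 members, 30 passed the filter on low counts, and 8 of these 30 passed the test (adjusted p under 0.05, edgeR's quasi-likelihood test, two-sided, with Benjamini-Hochberg adjustment over all 15572 genes tested). Over all genes tested the share called was 28.6%, and 8 of 30 is near that share, so the number of calls is not a result about the family. ABCC9, ABCC2, ABCG2 and ABCA5 were higher after CYT, where 15.7% of all genes were called higher. ABCF1, ABCE1, ABCC10 and ABCC1 were lower, where 12.9% of all genes were. The transcripts of those higher held 38.5%, 44.9%, 41.2% and 33.1% GC in that order. Those lower held 52.9%, 38.4%, 58.7% and 54.9%. Every gene called higher was thus under 45% GC, where CYT 2 was the highest CYT library. The part of base composition in the direction of these calls was not tested. All 8 also changed by more than 1 on the log2 scale, a criterion that 27.4% of all genes met together with the test. The median log2 fold change of the 30 was -0.03, beside 0.0064 over all genes tested, with a range of -1.62 to 3.08. CPM of the groups did not overlap for 13 of the 30, beside 46.1% of all genes tested. CYT lay above control in 5 (23.4% of all genes) and below it in 8 (22.7%).

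With the replicate number as a block, 13 of 30 members passed, and the number of all genes called went from 4451 to 6209. The 5 gained were ABCA3, ABCA8, ABCB6, ABCD3 and ABCF3. Without CYT 2, 14 members passed and all genes called rose likewise, to 5752. The 14 include ABCB1 and ABCC11, which entered that fit through their CYT libraries alone. Each of the 8 calls was lost when at least 1 of the 6 libraries was left out, and none of the 8 changed direction. The filter asks for a level equal to 10 counts in the median library in at least 3 libraries. ABCC9, ABCC2, ABCA10 and ABCG4 reached it in all 3 CYT libraries but not in all 3 control libraries, and ABCC6 the reverse. Genes such as ABCC9 and ABCC2 entered the test through the group where they were high, so their calls are given also with no filter.

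**Figure D2:**
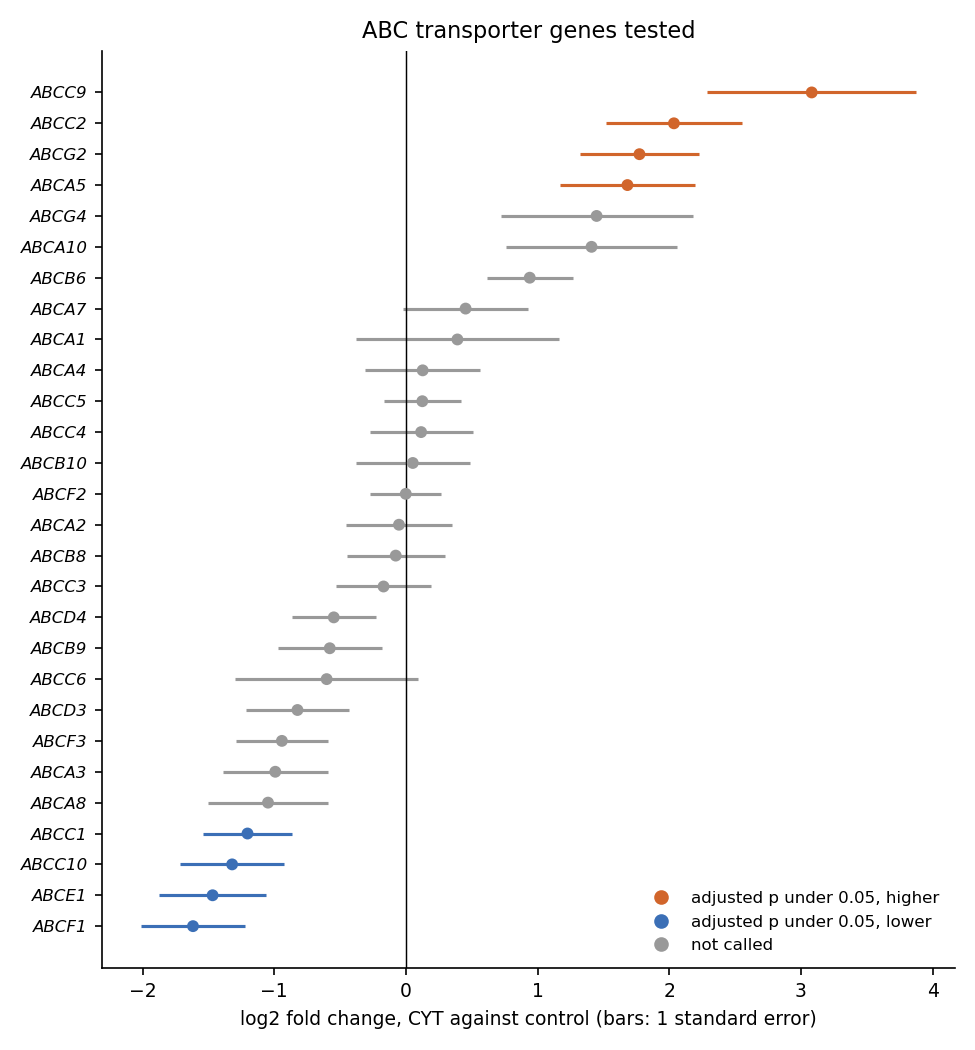
Log2 fold change of CYT over control with its standard error for 28 of the 30 tested ABC genes, in order of their value, from edgeR on 3 libraries per group. The 8 genes that passed the test lie between -1.62 (ABCF1) and 3.08 (ABCC9), and both directions occur among the drug and conjugate exporters.

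Among the 12 drug and conjugate exporters, 8 were tested, and 2 were higher and 2 lower (15.7% and 12.9% of all genes tested), with a median log2 fold change of -0.03. A count this small says nothing particular of the group. The most abundant of them was ABCC1 (ENSG00000103222, chromosome 16, 15949577 to 16143074, plus strand, hg38), which exports glutathione conjugates and anthracyclines. It had 1427, 1235 and 740 counts in control 1 to 3 and 496, 289 and 435 in CYT 1 to 3. After normalization this was 88.5, 65.8 and 53.2 CPM against 35.0, 20.6 and 34.6 CPM. Every CYT library lay below every control library. The mean went from 69.1 ± 17.9 to 30.0 ± 8.20 CPM (SD, n = 3), a log2 fold change of -1.20 with a standard error of 0.34 (adjusted p = 0.0262, edgeR). Without CYT 2 the log2 fold change was -0.99 (adjusted p = 0.0229). The call was lost without control 1 (adjusted p = 0.0998), control 2 (0.0513), CYT 1 (0.0546) or CYT 3 (0.0609).

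ABCC10, also called MRP7, is a broad exporter that handles taxanes. It had 494, 372 and 368 counts in control and 190, 78 and 149 in CYT libraries, with no overlap. In CPM it went from 25.6 ± 5.46 to 10.3 ± 4.15 (SD, n = 3), a log2 fold change of -1.32 with a standard error of 0.39 (adjusted p = 0.0322, edgeR), and of -1.02 without CYT 2 (adjusted p = 0.0240). The call was lost without control 1 (adjusted p = 0.101), control 3 (0.0854) or CYT 3 (0.0705). Its locus shares 79 bases with DLK2 on the opposite strand, which had 215, 190 and 139 against 207, 56 and 143 counts.

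ABCG2 (ENSG00000118777, chromosome 4, 88090264 to 88231322, minus strand) moved the other way. This pump of the plasma membrane carries mitoxantrone, anthracyclines and urate. Its counts were 33, 53 and 36 in control and 91, 194 and 67 in CYT libraries, or 2.05, 2.82 and 2.59 CPM against 6.42, 13.8 and 5.32 CPM. All 3 CYT libraries were above all control libraries, and CYT 2 was the highest. The mean was 2.49 ± 0.398 CPM in control and 8.52 ± 4.62 CPM after CYT (SD, n = 3), a log2 fold change of 1.77 with a standard error of 0.45 (adjusted p = 0.0170, edgeR). Without CYT 2 it was 1.23 (adjusted p = 0.0298). The call was lost without control 1 (adjusted p = 0.0669) or control 3 (0.0605).

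ABCC2, or MRP2, exports glutathione and glucuronide conjugates at apical membranes. It had 7, 16 and 18 counts in control and 45, 66 and 34 in CYT libraries, again with no overlap. The mean was 0.860 ± 0.430 CPM in control and 3.52 ± 1.04 CPM after CYT (SD, n = 3), a log2 fold change of 2.04 with a standard error of 0.52 (adjusted p = 0.0171, edgeR), and of 1.76 without CYT 2 (adjusted p = 0.0314). Only 2 of the 3 control libraries reached the filter's level, and with no filter the log2 fold change was 1.95 (adjusted p = 0.0195). The call was lost without control 1 (adjusted p = 0.0653) or control 2 (0.0511).

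**Figure D3:**
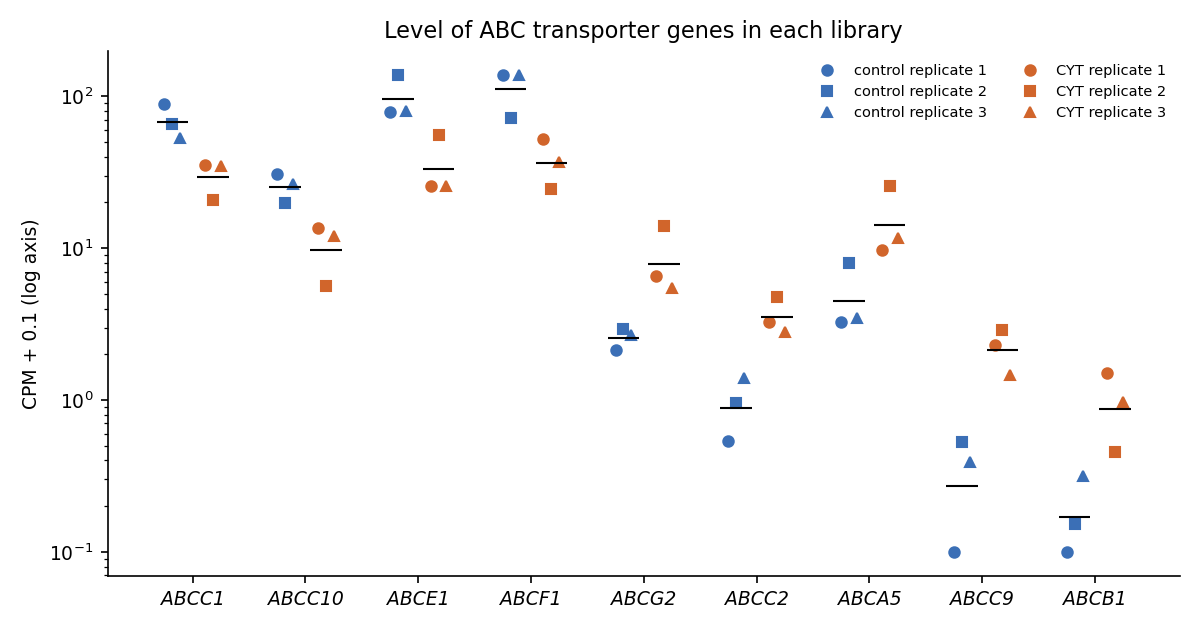
CPM plus 0.1 of the 8 called ABC genes and of ABCB1, which was not tested, on a log axis, 1 point a library, with a black bar at the geometric mean of the 3 libraries of a group. For each gene the 3 CYT libraries lie on 1 side of the 3 control libraries, as for ABCC1 with 53.2 to 88.5 CPM in control and 20.6 to 35.0 CPM after CYT.

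The stretch of DNA before the transcription start is shown for 3 of these exporters and for ABCF1, since they were called in opposite directions. Of the 45 members, 35 had an entry in the RefSeq promoter table (GRCh38.p14), and the window searched was the 250 bases before the start nearest to the principal transcript. The sequences run 5′ to 3′ on the strand of the gene, and the longest part of the window free of annotated exons is printed. Capitals mark motif matches, each motif being searched on both strands. The GC box was spelled GGGCGG, and it is the site of the factor SP1. The TATA box, which positions the polymerase, was searched for as TATAAA. For the E box, the site of helix-loop-helix factors such as MYC, the letters were CACGTG. The core of the antioxidant response element, the site of NRF2, was written TGACNNNGC.
ABCC2, chr10:99782390-99782639, plus strand: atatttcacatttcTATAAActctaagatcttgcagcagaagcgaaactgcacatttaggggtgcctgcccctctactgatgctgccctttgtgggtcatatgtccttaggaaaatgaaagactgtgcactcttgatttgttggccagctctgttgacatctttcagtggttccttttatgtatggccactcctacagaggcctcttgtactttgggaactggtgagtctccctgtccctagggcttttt
ABCG2, chr4:88159025-88159159, minus strand: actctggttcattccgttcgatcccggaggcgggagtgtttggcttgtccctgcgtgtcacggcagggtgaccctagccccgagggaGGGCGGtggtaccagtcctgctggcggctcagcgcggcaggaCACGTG
ABCC10, chr6:43427758-43427855, plus strand: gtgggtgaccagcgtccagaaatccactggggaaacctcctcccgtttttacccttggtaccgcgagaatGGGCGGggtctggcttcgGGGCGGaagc
ABCF1, chr6:30571192-30571375, plus strand: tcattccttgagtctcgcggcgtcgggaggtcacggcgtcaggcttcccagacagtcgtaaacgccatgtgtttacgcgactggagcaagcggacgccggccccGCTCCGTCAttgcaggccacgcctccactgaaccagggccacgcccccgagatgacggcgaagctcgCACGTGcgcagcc

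ABCC2 differs from the other 3 in these windows. Its 250 bases hold 45.6% GC and 1 CpG with no GC box and a TATA box 236 bases before the start, whereas the full windows of ABCG2, ABCC10 and ABCF1 hold 71.2%, 58.0% and 69.6% GC with 2, 3 and 1 GC boxes. The ABCC10 start used lies 3888 bases from that of the principal transcript. The E box is found before both ABCG2, which was higher, and ABCF1, which was lower. A GC box was present in 20 of the 35 member promoters and in 42.6% of 35116 promoters of the same length in the table. The members held the CCAAT box (letters CCAAT), the TATA box, the antioxidant core and the E box in 7, 5, 6 and 5 promoters, beside 32.0%, 10.7%, 10.9% and 6.34% of all promoters. Among the members called higher, 3 of 4 promoters held a GC box, and among those called lower 2 of the 3 with an entry did. A match is a string of letters in the window and not a binding site, and the 5 motifs do not overlap in the sequences printed.

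ABCB1 (ENSG00000085563, chromosome 7, 87503633 to 87713323, minus strand), the gene of P-glycoprotein and the classical pump of doxorubicin resistance, had few reads. It had 0, 1 and 3 counts in control and 20, 5 and 11 in CYT libraries, and so did not pass the filter. The CYT libraries all lay above the control libraries. From the summed counts of 4 and 36 and the library sizes, its share of counts was 10.9 times higher after CYT (95% exact conditional binomial interval 3.91 to 42.2, counting error only). With no filter its log2 fold change was 3.19 (adjusted p = 0.0410, edgeR), and DESeq2 gave an adjusted p of 0.0438. It entered 4 of the filtered fits with 1 library left out, each time through its CYT libraries alone. There the adjusted p was above the threshold without control 1 (0.0997) and control 2 (0.0976) and below it without control 3 (0.0399) and CYT 2 (0.0145). ABCB1 shares part of its locus with RUNDC3B on the opposite strand, which had 28 to 88 counts, and whether strand was used in counting is not given in the sources used here.

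The other tested exporters did not pass. ABCC3, which carries bile acids and glucuronides, had 288, 235 and 216 counts in control and 207, 117 and 225 in CYT libraries, a log2 fold change of -0.17 with a standard error of 0.36 (adjusted p = 0.760, edgeR). ABCC4, a pump of cyclic nucleotides and prostaglandins, had 183, 343 and 200 against 163, 344 and 147 counts (0.12, standard error 0.39, adjusted p = 0.853). In both the groups overlapped. ABCC5, another pump of cyclic nucleotides, had 523, 468 and 313 counts in control and 437, 356 and 389 in CYT libraries, a log2 fold change of 0.12 with a standard error of 0.29 (adjusted p = 0.783), with overlap. ABCC6, whose loss causes ectopic mineralization, had 20, 36 and 16 against 16, 2 and 20 counts (-0.60, standard error 0.70, adjusted p = 0.551). Its value is uncertain, since its pseudogene copies ABCC6P1 and ABCC6P2 had 6 to 28 and 2 to 27 counts and reads can be split among them.

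Of the exporters below the filter, ABCC11, which sits in apocrine glands and carries cyclic nucleotides, had 4, 0 and 0 counts in control and 17, 6 and 11 after CYT, a ratio of 10.3 (3.67 to 40.0, counting error only; adjusted p = 0.0546 with no filter, edgeR). It entered some of the filtered fits with 1 library left out, each time through its CYT libraries alone. There it passed without control 1 (adjusted p = 0.0236, edgeR) and CYT 2 (0.0268), and not without control 2 (0.114) or control 3 (0.144). The locus of ABCC11 overlaps LONP2 on the opposite strand, which had 326 to 1040 counts. The neighbouring gene ABCC12 had 2, 4 and 8 counts in control and 0 in every CYT library, at least 3.85-fold lower against a floor of 3 counts over the group (adjusted p = 0.0680 with no filter). ABCB5 had counts in CYT 3 only, with 4.

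Levels were compared between genes on the deposited FPKM scale, which divides by gene length. The FPKM of the 12 exporters summed to 14.1, 13.2 and 11.4 in control and 10.02, 10.4 and 9.21 in CYT libraries, so the sum was lower in every CYT library than in any control library. ABCC1 made up 52.7%, 47.7% and 41.8% of this sum in control 1 to 3 and 31.7%, 19.2% and 31.8% in CYT 1 to 3. ABCG2 made up 1.87%, 3.14% and 3.12% in control and 8.93%, 19.7% and 7.51% after CYT. Neither pair of ranges overlapped, and CYT 2 had both the lowest ABCC1 share and the highest ABCG2 share. Thus ABCC1 remained the exporter with the highest FPKM in CYT 1 and CYT 3, while in CYT 2 ABCC4 had 27.5%, ABCG2 19.7% and ABCC1 19.2%. ABCC2 made up 0.426% to 1.68% in control and 4.10% to 7.22% after CYT, and ABCB1 at most 0.190% and 1.43%. With 3 against 3 libraries an exact permutation test cannot give a p below 0.1, and none is given for these shares.

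**Figure D4:**
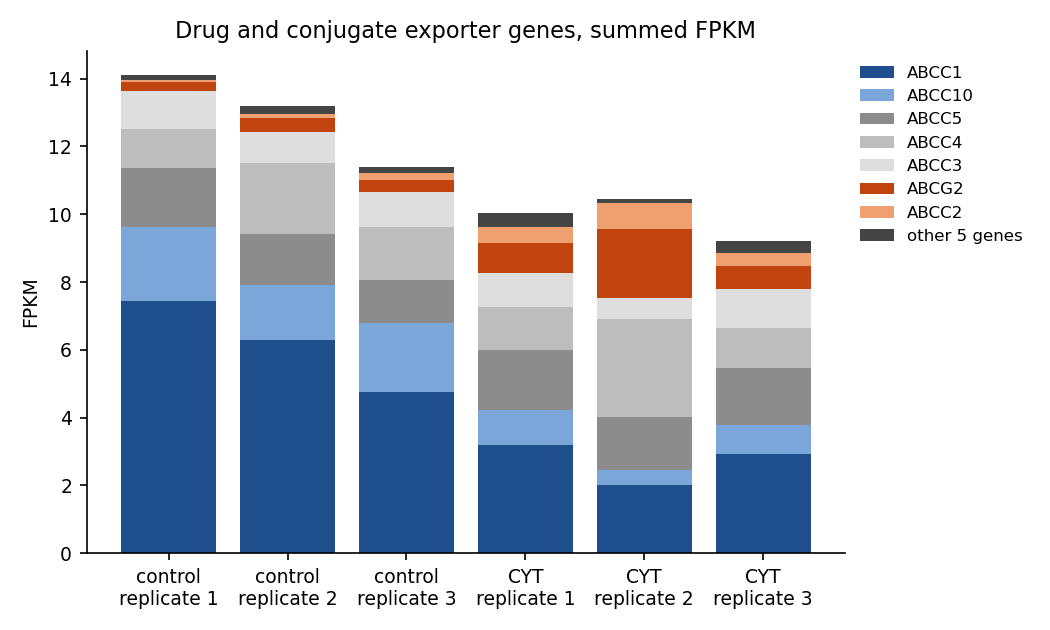
Deposited FPKM of the 12 drug and conjugate exporters stacked in each of the 6 libraries, the height being their sum. The sum is 11.4 to 14.1 in control and 9.21 to 10.4 in CYT libraries, with a thinner ABCC1 layer and a thicker ABCG2 layer after CYT.

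All 4 ABCE and ABCF genes were tested, with 0 higher and 2 lower, beside 15.7% and 12.9% of all genes tested, and a median log2 fold change of -1.20. With 4 genes this is a description of its members only. ABCF1 (chromosome 6, 30571376 to 30597179, plus strand), which binds the initiation factor eIF2 and ribosomes, had the second highest mean FPKM of the 45 members in control cells. Its counts were 2239, 1341 and 1928 in control and 743, 341 and 466 in CYT libraries, or 139, 71.4 and 139 CPM against 52.4, 24.3 and 37.0 CPM. The groups did not overlap. The mean went from 116 ± 38.9 to 37.9 ± 14.1 CPM (SD, n = 3), a log2 fold change of -1.62 with a standard error of 0.39 (adjusted p = 0.0141, edgeR), and of -1.38 without CYT 2 (adjusted p = 0.0146). The call was lost without control 1 (adjusted p = 0.0512), control 3 (0.0563) or CYT 3 (0.0549).

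ABCE1 (chromosome 4, 145097932 to 145129179, plus strand) splits ribosomes after termination so that they can be used again. It had 1260, 2589 and 1114 counts in control and 362, 783 and 324 in CYT libraries, and replicate 2 was the highest in both groups. No CYT library reached the lowest control library, 55.7 CPM against 78.1 CPM. The mean went from 98.7 ± 33.9 to 35.7 ± 17.4 CPM (SD, n = 3), a log2 fold change of -1.47 with a standard error of 0.41 (adjusted p = 0.0247, edgeR). Without CYT 2 it was -1.96 (adjusted p = 0.00290), and the call was lost without control 2 (adjusted p = 0.0726), CYT 1 (0.0865) or CYT 3 (0.0916). OTUD4, which overlaps ABCE1 on the opposite strand, had 193, 780 and 287 against 331, 644 and 254 counts. ANAPC10, which shares 610 bases with it on the opposite strand, had 204, 358 and 159 against 71, 92 and 82 counts, lower after CYT like ABCE1. The part of overlapping genes in the result was not tested.

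ABCF3 was at 84.5, 42.8 and 53.7 CPM in control and 35.8, 23.5 and 34.9 CPM in CYT libraries, with no overlap. It did not pass the test (log2 fold change -0.94, standard error 0.35, adjusted p = 0.0707, edgeR) and passed with the replicate block (adjusted p = 0.0179). ABCF2, the member with the highest mean FPKM in both groups (43.3 and 43.8), had 259, 230 and 189 against 240, 201 and 235 CPM. Its groups overlapped and its log2 fold change was -0.00097 with a standard error of 0.27 (adjusted p = 0.999). Of 5 partners of ABCE1 in ribosome recycling and termination, 4 were tested, with 2 lower (12.9% of all genes) and a median of -0.45. PELO, which rescues stalled ribosomes with ABCE1, was lower (log2 fold change -1.08, adjusted p = 0.0226), as was the termination factor GSPT1 (-0.81, adjusted p = 0.0490). Both calls were lost without control 1 (adjusted p = 0.0861 and 0.109), control 3 (0.0700 and 0.137), CYT 1 (0.0726 and 0.0940) or CYT 3 (0.0894 and 0.172), and that of GSPT1 also without control 2 (0.0978) and by 7 of the 11 fits on all libraries.

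ABCC9 (chromosome 12, 21797401 to 21942529, minus strand) is no transporter but the sulfonylurea receptor that regulates ATP-sensitive potassium channels. It had 0, 8 and 4 counts in control and 31, 39 and 17 in CYT libraries, or 0, 0.426 and 0.288 CPM against 2.19, 2.78 and 1.35 CPM. The groups did not overlap, and all values were low. The fitted log2 fold change was 3.08 with a standard error of 0.79 (adjusted p = 0.0176, edgeR), and 2.82 without CYT 2 (adjusted p = 0.0306). No control library reached the filter's level, and with no filter the log2 fold change was 2.99 (adjusted p = 0.0112). The call was lost without control 3 (adjusted p = 0.0670). ABCC8, the paralog of pancreatic beta cells, had at most 2 counts in any library.

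Of 11 ABCA lipid transporters other than ABCA1, 7 were tested, with 1 higher and 0 lower (15.7% and 12.9% of all genes) and a median log2 fold change of 0.13. ABCA5 (chromosome 17, 69244311 to 69327244, minus strand), a lysosomal lipid transporter, had 51, 149 and 47 counts in control and 136, 358 and 146 in CYT libraries. Its CPM values were 3.16, 7.93 and 3.38 against 9.59, 25.5 and 11.6, with replicate 2 the highest in both groups and no overlap. ABCA5 rose by 1.68 on the log2 scale, with a standard error of 0.51 (adjusted p = 0.0345, edgeR). It was 1.11 without CYT 2, where the call was lost (adjusted p = 0.0843), as it was without control 1 (0.121), control 3 (0.125) or CYT 3 (0.0514). The neighbouring ABCA10, whose locus shares 536 bases with ABCA5 on the same strand, had a log2 fold change of 1.41 (adjusted p = 0.132), which was 0.49 without CYT 2 (adjusted p = 0.546).

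ABCA3, the surfactant lipid transporter, had a log2 fold change of -0.99 (adjusted p = 0.0894, edgeR), and ABCA8 one of -1.05 (adjusted p = 0.115). With the replicate block both passed (adjusted p = 0.0118 and 0.0408). Without CYT 2, ABCA8 passed (adjusted p = 0.0255). ABCA2, ABCA4 and ABCA7 had log2 fold changes of -0.05, 0.13 and 0.45 and did not pass. With the correction for GC content and length that was added after the data were seen, ABCA7 had 0.88 and passed (adjusted p = 0.00806). ABCA12, which loads skin lipids into granules and is mutated in harlequin ichthyosis, was below the filter with 0 counts in every control library and 9, 9 and 5 in CYT libraries. This is at least 9.29-fold higher against the floor of 3 counts over the group (adjusted p = 0.0116 with no filter, edgeR, and 0.0124 by DESeq2). The antisense gene AC016708.1 shares 31733 bases with ABCA12 and had 0, 1 and 0 against 6, 13 and 7 counts, and without the strand setting the reads of the pair cannot be told apart. ABCA6 had at most 10 counts, ABCA9 at most 4 and ABCA13 at most 3.

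The sterol exporters were little expressed. ABCA1, which lipidates apolipoprotein A-I, had 4, 38 and 9 counts in control and 29, 19 and 6 in CYT libraries (log2 fold change 0.39, standard error 0.77, adjusted p = 0.737, edgeR). ABCG4 had 11, 2 and 15 against 19, 15 and 33 counts (1.45, standard error 0.73, adjusted p = 0.165). Both overlapped between groups. ABCG1, ABCG5 and ABCG8 had at most 9, 7 and 6 counts in a library. ABCB4, the phosphatidylcholine exporter of bile, had 16, 13 and 8 counts in control and 3, 6 and 0 after CYT, a ratio of 0.295 (0.125 to 0.622, counting error only; adjusted p = 0.197 with no filter). ABCB11, the bile salt pump, had at most 5 counts.

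ABCB6, ABCB8, ABCB9 and ABCB10, which act in mitochondria or lysosomes, were tested and did not pass. ABCB6, linked to porphyrin transport, was nearest to the threshold. It was at 24.0, 20.02 and 14.1 CPM in control and 38.9, 29.1 and 43.6 CPM in CYT libraries, with no overlap. Its log2 fold change of 0.94 had a standard error of 0.33 (adjusted p = 0.0556, edgeR). It passed in 8 of the 11 alternative fits on all libraries, the replicate block (adjusted p = 0.0279) and DESeq2 (0.0499) among them. It also passed without CYT 2 (adjusted p = 0.0165, edgeR), and it did not pass with no filter (0.108). Its locus shares 9219 bases, nearly its full length, with ATG9A on the same strand, which had 2235 to 3288 counts in control and 1154 to 1865 in CYT libraries. ABCB9, a lysosomal peptide carrier, had a log2 fold change of -0.58. ABCB8 and ABCB10, both of mitochondria, had -0.08 and 0.05.

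The ABCD genes named here did not pass the test on all libraries. ABCD3, a peroxisomal carrier of branched and bile acid precursors, had a log2 fold change of -0.82 (adjusted p = 0.146, edgeR), which passed with the replicate block (adjusted p = 0.0187) and without CYT 2 (-1.28, adjusted p = 0.0144). ABCD4, a lysosomal protein of vitamin B12 transport, had -0.55 (adjusted p = 0.225), or -0.67 with the GC and length correction, where it passed (adjusted p = 0.0424), and ABCD2 had at most 10 counts. Of the 3 peroxisomal import genes, 1 was lower, beside 12.9% of all genes tested. This was PEX3 (log2 fold change -1.08, adjusted p = 0.0389, edgeR). Its call was lost without any 1 library but CYT 2 (adjusted p = 0.0670, 0.0931 and 0.0871 without control 1, 2 and 3, 0.108 without CYT 1 and 0.135 without CYT 3). It was also lost in 4 of the 11 alternative fits on all libraries.

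**Figure D5:**
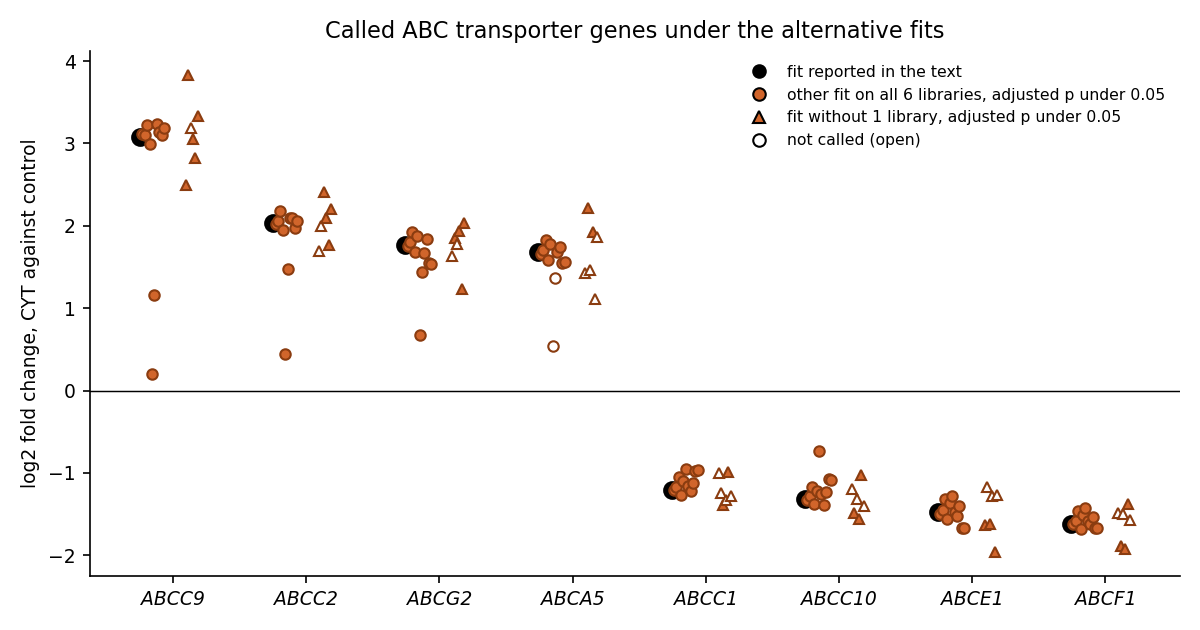
Log2 fold change of the 8 called ABC genes under the fit reported in the text (black) and under the other fits, with filled points where adjusted p was under 0.05. No point crosses 0, and the open points are mostly fits with 1 library left out.

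Family members with other symbols were read separately. TAP1, the peptide transporter of antigen presentation, had 1774, 1666 and 1107 counts in control and 4927, 3690 and 5478 in CYT libraries, with no overlap (log2 fold change 1.91, standard error 0.31, adjusted p = 0.00237, edgeR). Its partner TAP2 had 0.55 (adjusted p = 0.162). CFTR, the chloride channel, had 0 counts in control and 8, 6 and 3 in CYT libraries and was not tested.

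Other genes of drug transport moved in both directions, with 11 of 14 tested, 3 higher and 3 lower, beside 28.6% of all genes called either way, and a median log2 fold change of 0.04. MVP, the major vault protein once linked to multidrug resistance, had 5064, 3389 and 2241 counts in control and 842, 585 and 931 in CYT libraries (-1.91, standard error 0.37, adjusted p = 0.00499, edgeR). Its highest CYT library lay below its lowest control library. The copper and platinum importer SLC31A1 (1.69, adjusted p = 0.00427) and the cation carrier SLC22A3 (2.37, adjusted p = 0.0245) were higher, the latter from 2, 11 and 12 counts in control to 37, 54 and 21 after CYT and with an adjusted p of 0.0206 with no filter. The nucleoside importer SLC29A1 (-1.27, adjusted p = 0.0220) and the organic anion carrier SLCO4A1 (-3.12, adjusted p = 0.00202) were lower. SLCO4A1 had 64, 75 and 69 counts in control and 6, 10 and 4 after CYT, so it met the filter through the control group, and with no filter it had -3.20 (adjusted p = 0.000421). The calls of SLC22A3 and SLC29A1 were lost without control 1 (adjusted p = 0.0687 and 0.0766) or CYT 1 (0.0555 and 0.0601), that of SLC22A3 also without control 2 (0.0622) and that of SLC29A1 without control 3 (0.0608).

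Of 20 transcription factors that act on ABC genes, 17 were tested, with 0 higher, 4 lower and a median log2 fold change of -0.10. Their share called, 23.5%, was below the 28.6% of all genes tested called either way. All 4 calls were lower, beside 12.9% of all genes called lower and 15.7% called higher. RXRA, the obligate partner of several nuclear receptors, had 1131, 928 and 734 counts in control and 54, 87 and 71 in CYT libraries (-3.46, standard error 0.35, adjusted p = 0.000469, edgeR). No CYT library came near any control library. ARNT (-1.84, adjusted p = 0.00369), HIF1A (-1.39, adjusted p = 0.0332) and the sterol receptor NR1H3 (-1.25, adjusted p = 0.0360) were also lower. The call of HIF1A was lost without control 1 (adjusted p = 0.0614), control 2 (0.104), CYT 1 (0.108) or CYT 3 (0.116), and that of NR1H3 without control 1 (0.122), control 3 (0.0903) or CYT 3 (0.106).

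Of the 8 other genes known as targets of the sterol receptors LXR, a list that also holds NR1H3, 3 were higher and 1 lower (15.7% and 12.9% of all genes), with a median of -0.34. Those higher were MYLIP (2.53, adjusted p = 0.00189), APOE (1.68, adjusted p = 0.0212) and LPCAT3 (1.11, adjusted p = 0.0254). The call of APOE was lost without control 2 (adjusted p = 0.0607), control 3 (0.0877) or CYT 3 (0.0743), and that of LPCAT3 without any 1 library but CYT 2 (0.0577 to 0.0919). Of 16 genes of glutathione synthesis and conjugation, which make substrates of the ABCC pumps, 1 was higher and 2 were lower, with a median of -0.05, and the 3 calls were a smaller share than the 28.6% of all genes tested. GSTM3 was higher (2.48, adjusted p = 0.000734), and GSTA4 (-1.48, adjusted p = 0.00877) and the glutathione reductase gene GSR (-0.98, adjusted p = 0.0224) were lower. The call of GSR was lost without control 1 (adjusted p = 0.0708), control 3 (0.0778), CYT 1 (0.0686) or CYT 3 (0.0780).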

How the data were processed

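The 6 mRNA libraries, 3 control and 3 CYT, were sequenced on a NovaSeq instrument. The authors aligned reads with Hisat2, and the submitters' processing notes name hg38 and FastQC 0.12.1. The study's methods name StringTie for FPKM and, for the statistics of genes, a program written as "edge", read here as edgeR. The strand setting and the handling of multi-mapping reads are not given in the sources used here. The deposited table holds raw counts per gene, which are not normalized, and FPKM, which the authors derived per gene length and library size. Where a gene reached 50 counts in each library (10160 genes), the length implied by counts and FPKM varied across the 6 by no more than 0.00209%. Columns of the authors' own comparison were not used, and 0 columns of per-sample values were left out.

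Counts were filtered with filterByExpr (minimum count 10), scaled by TMM and tested with edgeR 4.0.16 (glmQLFit, glmQLFTest; R 4.3.3) with Benjamini-Hochberg adjustment over 15572 genes. The biological coefficient of variation was 37.5%. CPM values use TMM library sizes. FPKM values were used only for levels between genes and, as log2(FPKM + 1) or log2(FPKM + 0.1), in limma 3.58.1, where fold changes of low genes are understated. DESeq2 1.42.0, other scalings and filters, single libraries left out and a replicate block were alternatives, and a correction for GC content and length was added after the data were seen. Scripts were tested on simulated data. Depth was 13056270 to 17770102 counts per library, and a count of 0 allows up to 3 counts. Intervals cover counting error only.

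Control and CYT libraries share replicate numbers in the labels. The deviations from the group means correlated at 0.188, 0.458 and 0.124 for pairs 1, 2 and 3, and at 0.303 and 0.201 for control 1 with CYT 3 and control 3 with CYT 1. Every same-numbered pair was above 0.1, which was the reason to give blocked values where they change a call. Yet control 1 correlated more with CYT 3 than with CYT 1, and control 3 more with CYT 1 than with CYT 3. The correlations therefore do not bear out the pairing by number for replicates 1 and 3, and blocked values are an alternative only. The members and gene lists were chosen with earlier results of these data known. Library values are given for ABCB1, ABCC1, ABCG2, every member with adjusted p under 0.05 and every tested drug exporter. Other members are given by log2 fold change or, if filtered, by their highest count, and of the other lists called genes are named. Members shown beyond this rule with library values were chosen after their values were seen. Loci are those of the deposited table (hg38), which equal those of GENCODE 29 for 36 of the 45 members. Some genes of the family and of the other lists are not reported here by name, and they remain in the counts and medians.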

Additional observations from a re-analysis of the deposited data

How the results depend on the processing

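All 8 called members kept their direction in all 17 alternative fits in which they were tested. Of the 8, 7 kept their call in the 11 fits on all libraries, ABCC2 and ABCC9 not being tested at a mean of at least 5 CPM. The exception was ABCA5, with adjusted p of 0.0695 and 0.0537 by limma on log2(FPKM + 1) and log2(FPKM + 0.1). With the replicate block, 13 members passed, 8 of them lower, the 5 gains being those named above, and no other call of a member changed. Correction for GC content and length, chosen after seeing the data, gave 17 members (7 higher, 10 lower) and a count of all genes called of 7308, and with the replicate block 17 (7 and 10) and 7135. ABCA7 and ABCD4 were among the gains. DESeq2 called 7 members higher, ABCB1 and ABCA12 being 2 that the reported fit did not test, and 5493 of all genes called. Limma on log2(FPKM + 1) left 2 members past both the test and a log2 change of 1, and 2375 of all genes. A filter at a mean of 5 CPM left 2859 of all genes called, and 2710 of all DEGs, the genes past the test and that change. The causes were not tested, apart from the smaller number of genes that the stricter filter leaves. With 1 library left out, members called ranged from 3 (without control 1 or without CYT 3) to 14 (without CYT 2), those higher from 2 to 7, those lower from 0 (without CYT 3) to 7, those past a log2 change of 1 from 3 to 12, and all genes from 2891 to 5752. The 3 called without control 1 include ABCC11, which the reported fit did not test.

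Only members that were not called changed sign. Upper-quartile scaling, which moved the median of all genes from 0.0064 to 0.16, gave ABCA2 0.10, ABCB8 0.071 and ABCF2 0.15. At a mean of 5 CPM these were 0.050, 0.023 and 0.10, and among protein-coding genes 0.038, 0.0081 and 0.081. The GC correction gave ABCA2 0.41, ABCB8 0.14, ABCB10 -0.16 and ABCC3 0.033, and with the replicate block 0.41, 0.15, -0.24 and 0.021. ABCB10 was -0.037 with no filter, -0.029 and -0.072 by limma at pseudocounts 1 and 0.1, and -0.091 with the replicate block. ABCF2 was 0.033 with DESeq2 size factors, 0.026 and 0.027 by limma, and 0.0062 with the replicate block. With 1 library left out, the log2 fold change spanned -0.10 to 1.52 for ABCA1, -0.32 to 0.26 for ABCA2, -0.054 to 0.23 for ABCA4, -0.56 to 0.34 for ABCB10, -0.28 to 0.23 for ABCB8, -0.39 to 0.084 for ABCC3, -0.35 to 0.30 for ABCC4, -0.0065 to 0.27 for ABCC5 and -0.14 to 0.089 for ABCF2. Of the 20 called genes in the other lists, 10 kept their call in all 17 fits and none changed sign, while HIF1A, NR1H3, PEX3 and GSPT1 lost it with upper-quartile scaling (adjusted p = 0.0516, 0.0548, 0.0701 and 0.0963, edgeR). Depth limits what can be said of the 15 members that were not tested, which had at most 20 counts in any library.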

Other observations

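Within 2 pairs of neighbouring members below the filter, the genes had counts that differed in opposite directions. ABCB1 and ABCB4 lie side by side on chromosome 7, and after CYT the first had 20, 5 and 11 counts against 0, 1 and 3 in control, and the second 3, 6 and 0 against 16, 13 and 8. ABCC11 and ABCC12 are neighbours on chromosome 16, with 17, 6 and 11 counts against 4, 0 and 0 for the first and 0 in every CYT library against 2, 4 and 8 for the second. Other neighbours below the filter differed in the same direction. ABCG5 and ABCG8 on chromosome 2 were at 0 in control and had 7, 0 and 0 and 2, 2 and 6 counts after CYT, and ABCA6 and ABCA9 on chromosome 17 were at 0 in control and had 0, 10 and 2 and 0, 4 and 4. These pairs were chosen after their values were seen, and the difference within a pair was not tested.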
